A study of Mus musculus with 4 samples.

Results

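The genes described here are the 67 protein-coding members of the clustered, replication-dependent histone families of the mouse, taken as every protein-coding gene of the GENCODE M21 basic annotation (GRCm38) whose symbol starts with Hist1h, Hist2h, Hist3h or Hist4h. They are 67 of 21938 protein-coding genes on chromosomes 1 to 19, X and Y, and 3 further records with such symbols are pseudogenes and were left out. By class they hold 6 H1, 18 H2A, 18 H2B, 12 H3 and 13 H4 genes. Binding of CTCF around them was read from ChIP-seq, in which DNA fragments bound by a protein are precipitated with an antibody and sequenced. The mice were adult B6CASTF1/J females, 2 months old, and the tissue was the left cerebral cortex, with 1 condition, no allele or treatment to compare, and 4 libraries. Pool I (biological replicate 1) and pool J (biological replicate 2) each combined 4 cortex biosamples and gave 2 technical replicate libraries, so a value is an average over several animals and over all cell types of the cortex. The pools share strain, sex, age and tissue, and nothing in the lists separates neurons from glia or one parental allele from the other. The deposited notes name 1 alignment file for the 2 libraries of a pool, so the lists give values per pool and none per library, and no count of reads.

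Histones are the proteins around which DNA is wrapped. H2A, H2B, H3 and H4 form the core of the nucleosome, and H1 binds the linker DNA between cores. The replication-dependent genes lack introns as a rule, are transcribed mostly in S phase, and end their messages in a stem-loop rather than a poly(A) tail, while the cells of the adult cortex have for the most part left the cell cycle. CTCF is a zinc finger protein that binds an asymmetric DNA motif, and with cohesin it holds the ends of chromatin loops, most often where a pair of motifs point toward each other.

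A peak summit is the base of highest signal in a peak. A member was counted as having a promoter summit when a summit lay within 1000 bp of the transcription start site (TSS) of any of its transcripts. The main list is the conservative one, 44672 peaks that were reproducible between the pools at an irreproducible discovery rate (IDR, the share of irreproducible peaks expected among those ranked as high) of 0.05. The optimal list (50827 peaks) came from the reads of both pools together, and the lists of pool I (82131) and pool J (52658) from each pool alone. Each peak carries a signal value that the authors' peak caller assigned. Its unit is not given in the sources used here, so levels are read within a list, with their percentile in it, and the pools are set against each other only as a ratio relative to the median ratio of all conservative peaks.

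The motif learned from the strongest 1000 conservative peaks of chromosomes without histone clusters reads as follows, with the most frequent base at each of 20 positions and the 14 central positions in capitals here and in the sites after it.
Learned motif: tggCCACCAGGGGGCGCtat
These are the sites at the summits that carry the results below, namely the 4 member promoters with a match and the summits nearest to the outer edges of the chromosome 13 clusters. Each is read along the strand of the motif on GRCm38. A match is a score over 12.6, which 1% of windows beside the peaks pass, centred within 50 bp of a summit.
Hist1h4j, chr13:21734276-21734295, minus strand: tggCCACTAGAGGGCACtct
Hist1h4c, chr13:23697558-23697577, minus strand: ctgCCACAAGAGGGCGGcgt
Hist2h4, chr3:96263469-96263488, minus strand: gaaCCGGTAGAGGGCAGaga
Hist3h2a, chr11:58954977-58954996, minus strand: ccaACTGCAGGTGGCGCggg
Left edge of Hist1 west, chr13:21714909-21714928, plus strand: tggCCACAAGATGGCAGaaa
Right edge of Hist1 west, chr13:22044314-22044333, minus strand: tggCCACAAGATGGAGAcat
Left edge of Hist1 east, chr13:23524811-23524830, minus strand: cagCCACATGAGGGCGCcag

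In the conservative list 11 of 67 members (16.4%) had a promoter summit, against 20.8% of all protein-coding genes. The optimal list gave 12 members (17.9%, all genes 23.8%), pool I 28 (41.8%, all genes 37.4%) and pool J 9 (13.4%, all genes 25.2%). In the list of both pools ranked before the IDR threshold, 30 members (44.8%) had one, against 49.0% of all genes. The members therefore had no more promoter summits than genes at large in 4 of these 5 lists, and somewhat more in pool I. In all 4 thresholded lists 8 members had a promoter summit, and in none of them 39. The same counts over all genes are not given here. By class, the conservative list held 4 of 13 H4 genes, 3 of 18 H2A, 2 of 18 H2B, 2 of 12 H3 and 0 of 6 H1. By cluster it held 1 of 23 members in Hist1 west, 5 of 31 in Hist1 east, 4 of 10 in Hist2, 1 of 2 in Hist3 and 0 of 1 at Hist4. The place of the H4 genes above the share of all genes depended on the window. In the conservative list 2 of 13 H4 genes had a summit within 500 bp (all genes 15.7%). Within 5000 bp it was 5 of 13 (all genes 38.8%), so H4 did not stand above all genes at either window. With 2 pools and no second condition, none of these shares was tested.

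**Figure D1:**
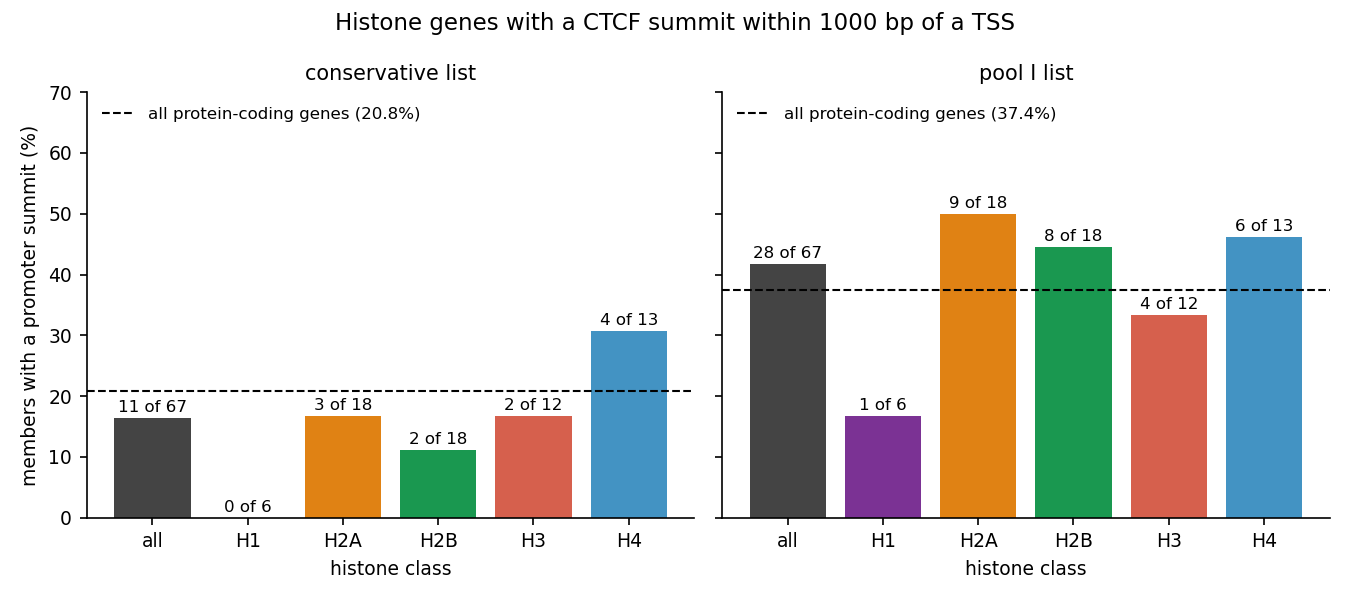
Share of histone members with a CTCF summit within 1000 bp of a TSS (y axis, %) by histone class (x axis), in the conservative list (left) and the pool I list (right); bars carry the count of members and the dashed line is the share of all protein-coding genes. In the conservative list only the H4 bar (4 of 13) stands above the line at 20.8%, and in pool I the H2A, H2B and H4 bars stand above 37.4%. With windows of 500 and 5000 bp the H4 share in the conservative list did not stand above that of all genes.

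The H4 genes held the strongest promoter summits. At Hist1h4j the summit (chromosome 13, position 21734312) lay 752 bp upstream of the TSS, between genes, with a signal value of 533 (percentile 87.9 of the list), and 340 in pool I and 196 in pool J. At Hist1h4c it lay 871 bp downstream, past the end of this short gene, at position 23697583, with 458 (percentile 76.4), 298 in pool I and 158 in pool J. Hist2h4 had its summit 174 bp upstream (chromosome 3, position 96263485) with 425 (percentile 71.6), 269 in pool I and 159 in pool J. All 3 carried a motif match, that of Hist2h4 with a score of 12.7 just over the threshold of 12.6, and all 3 stood above the median signal of all conservative peaks, 269.

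The fourth, Hist1h4f, had the summit closest to a start of any member, 18 bp upstream of the TSS at position 23551666, with a signal value of 232 (percentile 44.4), 157 in pool I and 76.9 in pool J. It carried no motif match. Its 100 bases before the TSS (chr13:23551649-23551748, minus strand) are shown because the summit falls inside them, with the best-scoring 20 bases in capitals. Those scored 9.16, under the threshold of 12.6.
Hist1h4f: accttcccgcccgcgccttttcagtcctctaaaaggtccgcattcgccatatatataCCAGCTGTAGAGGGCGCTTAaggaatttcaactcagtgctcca
Beyond these 4, pool I alone added Hist1h4a (985 bp downstream, signal value 20.2, percentile 3.17 of the pool I list) and Hist4h4 (975 bp upstream, 49.0, percentile 36.5). Pool J added no H4 gene.

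Of the H3 genes, Hist1h3e had a summit 952 bp upstream (position 23563321) with a signal value of 340 (percentile 59.7), 218 in pool I and 121 in pool J, and no motif match. Hist1h3c shared the weakest summit of the clusters with the H2B gene Hist1h2bb, at position 23746349, 747 bp upstream of Hist1h3c and 385 bp upstream of Hist1h2bb. Its signal value was 71.8 (percentile 1.20), with 51.3 in pool I and 20.2 in pool J. It lay in Gm11336, an unprocessed pseudogene between them. The optimal list placed another summit 44 bp downstream of the Hist1h3c start (71.6, percentile 5.27) and did not hold the one it shares with Hist1h2bb. It also added Hist1h3b (46 bp downstream, 56.6, percentile 0.876) and Hist1h3g (111 bp upstream, 68.6, percentile 4.12), which pool I held too (56.0 and 72.8) and pool J did not.

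Among the H2A genes, Hist3h2a stood out by where its summit lay, in its own coding exon 325 bp downstream of the TSS (chromosome 11, position 58955010). The signal value was 325 (percentile 57.7), with 240 in pool I and 84.2 in pool J, and the same summit lay within 1000 bp of a TSS of Trim17, a ubiquitin ligase gene and the one other gene inside a cluster span with a conservative promoter summit. Hist2h2ab had a summit 514 bp upstream (chromosome 3, position 96219351), in an intron of Bola1 and within 1000 bp of a TSS of that gene as well, with 123 (percentile 18.5), 84.5 in pool I and 35.7 in pool J. Hist2h2ac and the H2B gene Hist2h2be shared a summit at position 96220923, 43 bp from the former's start and 196 bp from the latter's. It was weak at 74.3 (percentile 1.61), with 56.4 in pool I and 21.2 in pool J, and the thresholded list of pool J held no summit at either gene.

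H2A and H2B genes often lie head to head and share the DNA between their starts. Of 13 divergent pairs of members, with 176 to 660 bp between the starts (median 268), 12 joined an H2A to an H2B gene. A promoter summit was called at 1 pair in the conservative list, Hist2h2ac with Hist2h2be, at the same number in the optimal list, at 6 in pool I and at 0 in pool J. No share over divergent pairs of all genes is given here, so these counts are not read as low or high. The 238 bases between the starts of Hist2h2ac and Hist2h2be (chr3:96220881-96221118, read along Hist2h2be) are shown since their shared summit lies in them. Capitals mark TATAAA (1 match), CCAAT (3) and the octamer core ATTTGCA (1) on either strand. The best motif score near this summit was 1.63.
Hist2h2ac to Hist2h2be: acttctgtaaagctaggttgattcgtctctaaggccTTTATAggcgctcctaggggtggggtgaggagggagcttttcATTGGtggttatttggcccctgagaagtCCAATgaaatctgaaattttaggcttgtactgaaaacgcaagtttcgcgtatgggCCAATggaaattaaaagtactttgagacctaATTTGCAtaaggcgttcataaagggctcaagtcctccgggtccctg

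None of the 6 linker histone genes had a promoter summit in the conservative, optimal or pool J list (all genes 20.8%, 23.8% and 25.2%). In pool I (all genes 37.4%) only Hist1h1c had any, 42 bp downstream (percentile 14.6) and 937 bp downstream (43.0, percentile 31.4) of its TSS. A class of 6 is too small to set the missing summits apart from those shares. Its median distance to a conservative summit was 7.21 kb, against 8.71 kb for all genes. The nearest conservative summit to a linker histone gene lay 1596 bp from Hist1h1d, and the one nearest to Hist1h1t, a testis linker histone, 1769 bp away.

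**Figure D2:**
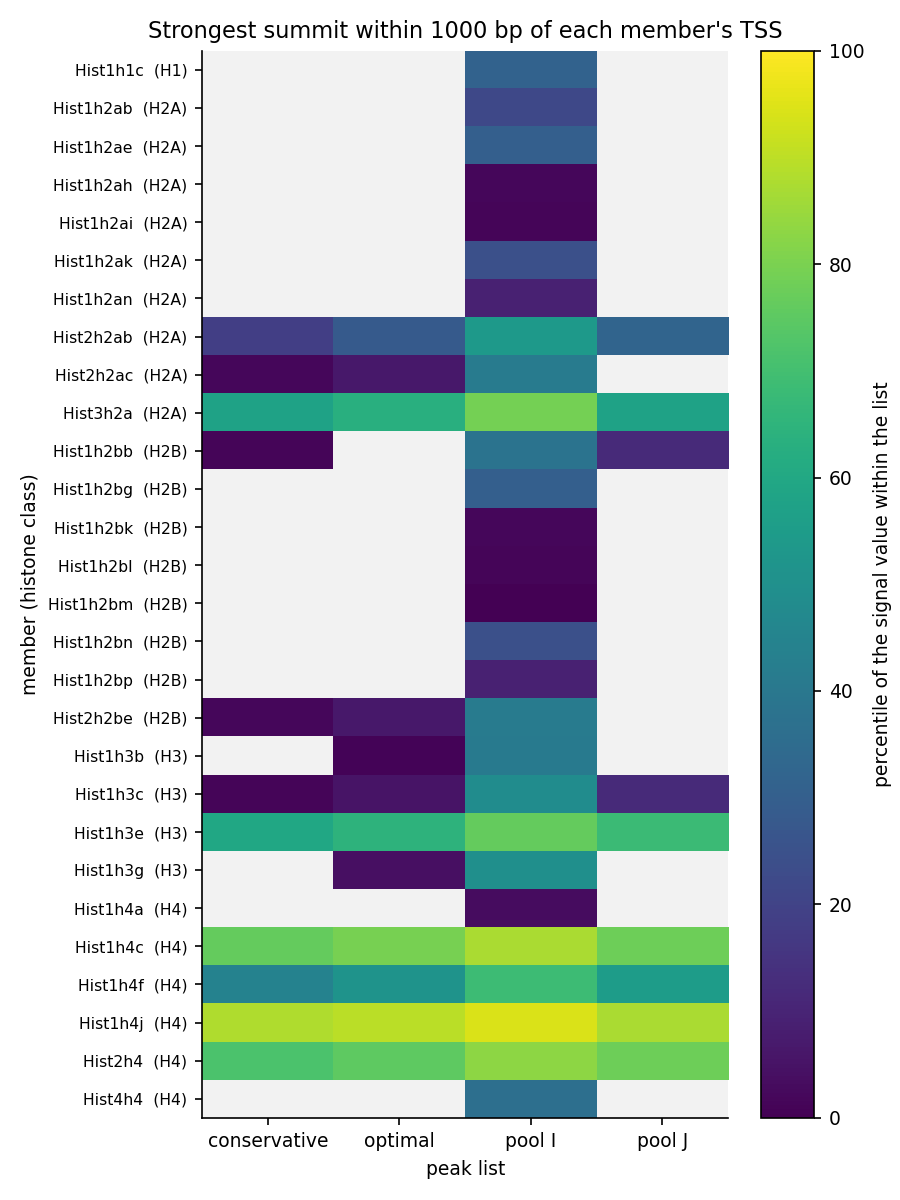
Percentile of the signal value (colour, 0 to 100, within each list) of the strongest summit within 1000 bp of a TSS, for the 28 members with one in any of the 4 thresholded lists (y axis, with histone class) by list (x axis); grey marks no summit. The H4 genes Hist1h4c, Hist1h4j and Hist2h4 are high in every list, and 17 members with a summit in pool I are grey in the conservative list.

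All 9 members of the pool J list were also in the pool I list, which held 19 more. Of those 19, Hist1h3b and Hist1h3g were also in the optimal list and Hist2h2ac and Hist2h2be in the conservative one as well. Among all genes 8212 had a promoter summit in pool I and 5531 in pool J. How far these overlap is not given here, so the nesting is not read as particular to the members. The strongest summits that pool I added reached the middle of its own list, with percentiles of 49.7 at Hist1h3g, 41.6 at Hist2h2ac and Hist2h2be and 41.3 at Hist1h3b, and the weakest lay near its end. At Hist1h2bm, with 5.74, the percentile was 0.140, and at Hist1h2ai and Hist1h2bl, which share a summit, 12.7 gave 1.38. At Hist1h2ah and Hist1h2bk, which share another, 16.3 gave 1.79. The pool I list is also the longest. Limited to its strongest 52658 peaks, as many as pool J holds, it kept 14 members (20.9%, all genes 25.1%), the 9 of pool J with Hist1h3b, Hist1h3g, Hist2h2ac, Hist2h2be and Hist4h4.

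Of the 9 H2A genes with a pool I summit, 6 had it inside the gene. Hist1h2ab (339 bp downstream of the TSS, signal value 34.3), Hist1h2ae (270 bp, 41.8), Hist1h2ak (235 bp, 36.5), Hist1h2an (194 bp, 25.3) and Hist1h2ai (49 bp, 12.7) had theirs in the coding exon, as did Hist3h2a. All of these summits also lay within 1000 bp of a start of a neighbour. In the same order these were Hist1h3b, Hist1h2bg, Hist1h2bn, Hist1h2bp, Hist1h2bl and, for Hist3h2a, Trim17. The learned motif was therefore scored along the coding block of each member. In 18 of 18 H2A genes the best-scoring 20 bases were centred 248 bp from the start of the coding sequence, on the strand opposite to the gene. They scored 11.5 as the median, and 12.8 in Hist3h2a, the one member of any class to pass the threshold of 12.6 in its coding block. The 18 genes held 5 distinct forms, of which 4 are shown to compare them, and 16 genes, Hist3h2a among them, were within 2 differences of its form.
Hist3h2a, score 12.8: ccaACTGCAGGTGGCGCggg
Hist1h2ab, score 11.5: ccaGCTGCAGGTGGCGCggg
Hist2h2ac, score 10.7: ccaGCTGCAGATGGCGCggg
Hist2h2ab, score 2.98: ctaGTTGCAGATGGCGCggg
The form of Hist1h2ab, with 1 difference from Hist3h2a, was also the best match at the summit in the pseudogene Gm11336 beside Hist1h2bb (11.5). A pool I summit lay within 100 bp of this site in 5 of the 18 genes, Hist1h2ab, Hist1h2ae, Hist1h2ak, Hist1h2an and Hist3h2a, and a conservative summit in Hist3h2a only. The best matches in the coding blocks of the other classes had median scores of 7.35 (H1), 6.41 (H4), 5.19 (H2B) and 2.35 (H3). A match is a run of letters and does not show binding. Around the pool I summits of Hist1h2ae, Hist1h2ab and Hist1h2an only 26.9%, 38.5% and 3.85% of 50-base windows occur once in the genome, so reads there could belong to other copies, and the part of this in the calls was not tested.

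The members fall into 5 clusters when neighbours up to 500 kb apart are joined. Hist1 lies on chromosome 13 in a western block (21715763 to 22043676, 23 members from Hist1h2bl to Hist1h2bj) and an eastern one (23531050 to 23934851, 31 members from Hist1h4h to Hist1h2aa). Hist2 lies on chromosome 3 (96219865 to 96270132, 10 members from Hist2h2ab to Hist2h2bb), Hist3 on chromosome 11 (58948920 to 58956830, Hist3h2ba and Hist3h2a) and Hist4h4 alone on chromosome 6 (136801553 to 136804415). The spans held 21 conservative summits in 0.793 Mb, or 26.5 per Mb, against 16.9 in the genome without its gaps in sequence. The order turned when members up to 3 Mb apart were joined, which adds the stretch between the Hist1 blocks and gave 14.5 per Mb. Hist1 west held 6 (18.3 per Mb), Hist1 east 12 (29.7), Hist2 2 and Hist3 1, and Hist4h4 none. The 1.49 Mb between the Hist1 blocks held 12 summits, 8.07 per Mb. Of the 40 protein-coding genes there, 36 are vomeronasal receptors and 1 had a conservative promoter summit. In this list the summits were thus denser in both Hist1 blocks than in the stretch that parts them.

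**Figure D3:**
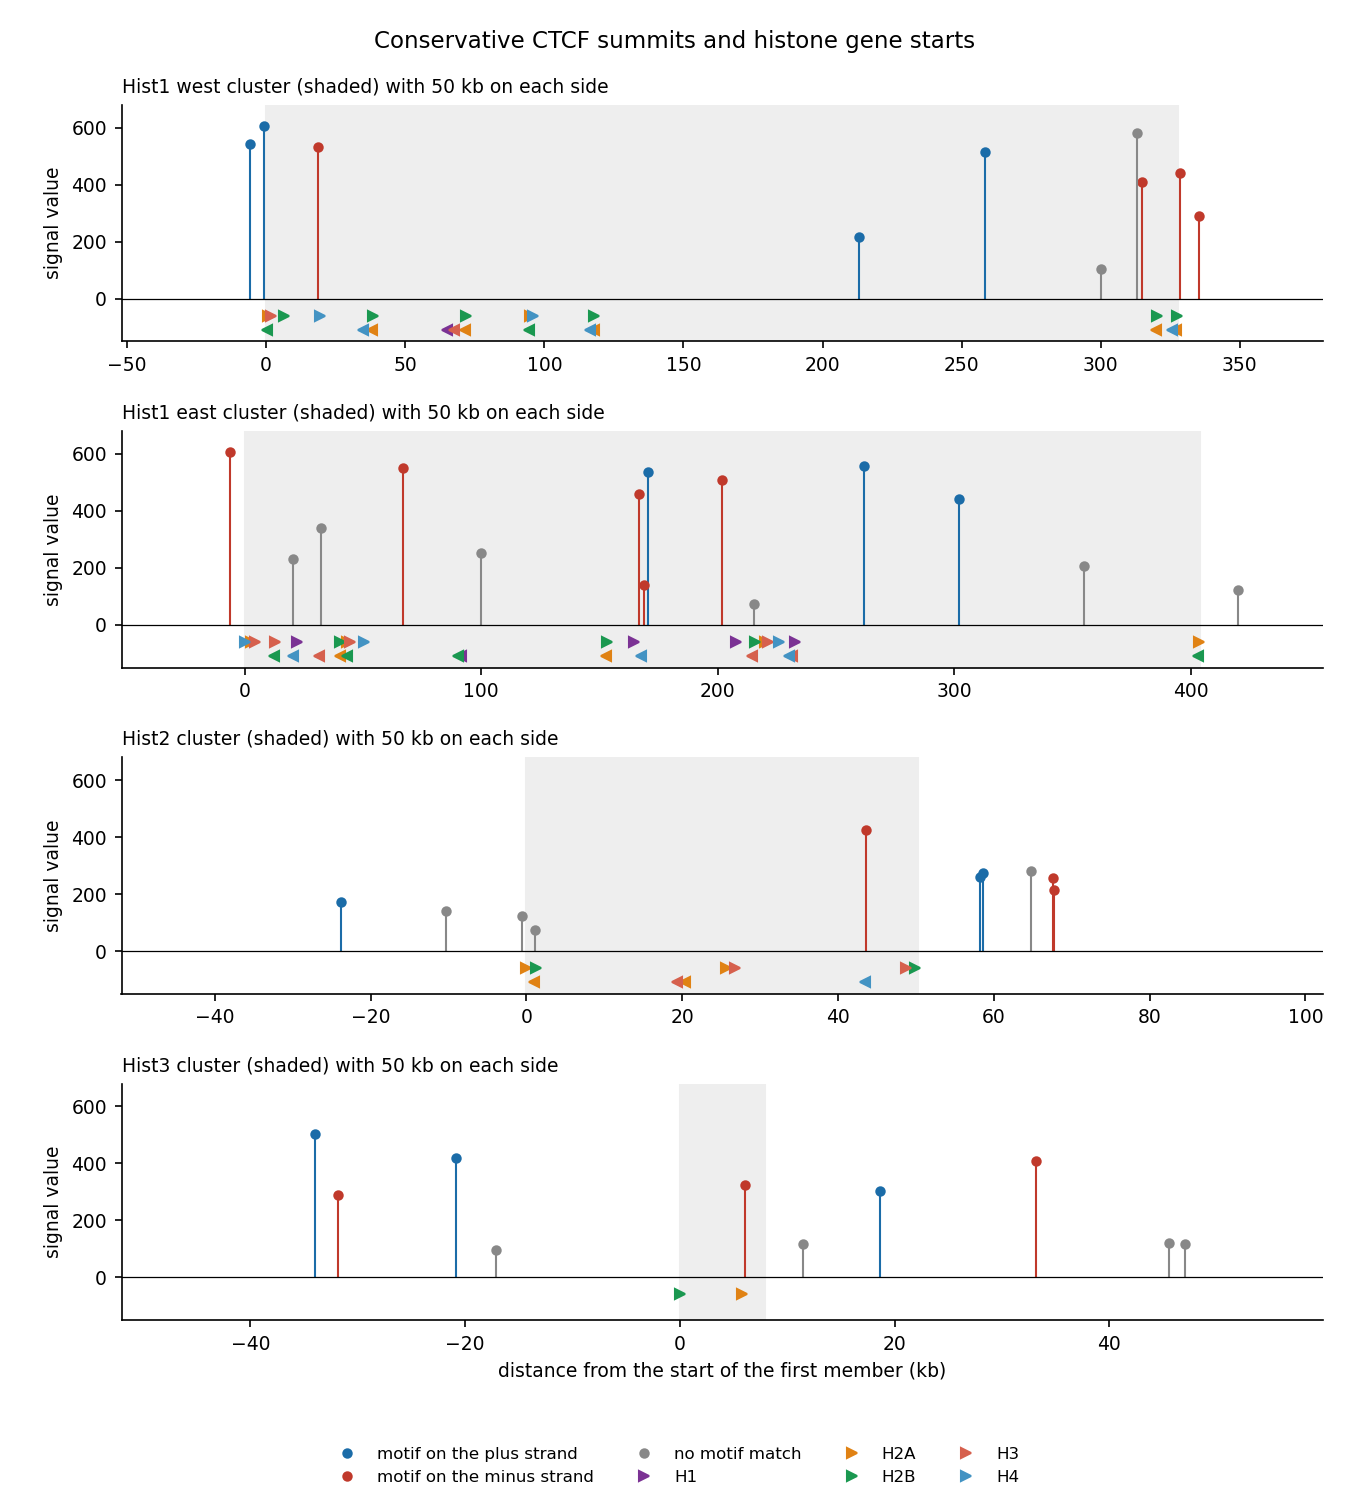
Signal value (y axis, peak caller's unit) of each conservative CTCF summit against its distance from the start of the first member (x axis, kb) for 4 clusters with 50 kb on each side; stems are coloured by motif strand, and arrowheads below mark the TSS of each member by class and gene strand. In Hist1 west the summits at the left edge carry motifs on the plus strand and those at the right edge on the minus strand, and 14 members lie in the long interval without a summit that starts 18.5 kb from the first member.

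Summits stood close to the outer members of Hist1 west and farther from those of Hist1 east. To the left of Hist1 west, between it and the olfactory receptor gene Olfr1359, they lay at 21710094 (signal value 544, percentile 89.6) and 21714908 (607, percentile 96.8), the latter 0.855 kb before Hist1h2bl. To the right, before Vmn1r188, they lay at 22044338 (441, percentile 73.8), 0.662 kb past Hist1h2bj, and at 22051130 (290, percentile 53.1). The motifs of the left pair were on the plus strand and those of the right pair on the minus strand, so both pairs pointed into the block. Left of Hist1 east the one summit within 50 kb, at 23524832, lay 6.22 kb before Hist1h4h. It was the strongest of all regions (signal value 608), with a motif on the minus strand, pointing away from the block. Right of Hist1 east the only one, at 23951129 (121, percentile 17.9), had no match. It lay 16.3 kb beyond Hist1h2aa and short of Scgn.

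Inside Hist1 west the summits were at 21734312 (at Hist1h4j), 21928743 (215), 21974350 (513), 22016009 (104), 22028870 (583) and 22030639 (411). Inside Hist1 east those away from member promoters were at 23598187 (552, in an intron of the Hist1h2be record), 23630841 (251), 23700015 (140), 23701377 (538), 23732674 (510), 23792678 (559), 23833186 (442) and 23885744 (205, in an intron of Slc17a1, a phosphate transporter gene). Most lay between protein-coding genes: 18 of the 21 inside, against 15 of 25 at the edges. Some of the 18 fell in other gene records, 22016009 in Gm11290, 22028870 and 22030639 in Gm11292 and 23746349 in Gm11336. The share over all conservative summits is not given here.

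At Hist2 the left edge held summits at 96196088 (174), 96209478 (142) and 96219351 (123), the last pair in introns of Bola1, and the right edge at 96278106 (260), 96278525 (274), 96284692 (280), 96287435 (256) and 96287644 (216), the last 3 in introns of Fcgr1, an Fc receptor gene. At Hist3 they were at 58914912 (502), 58917114 (290), 58928117 (419) and 58931784 (94.5) on the left, past Rnf187. On the right they were at 58960377 (115) and 58967537 (303), in introns of Trim17, and at 58982058 (408), in a coding exon of Trim11, among others. Hist4h4 had none within 50 kb on the left, toward Gucy2c, and 2 on the right at 136813341 (150) and 136847980 (348), beyond the variant histone gene H2afj. Bola1 had a conservative promoter summit, and of the 10 genes next to a cluster edge it was the only one.

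Neighbouring summits divided the spans into 26 intervals, of which 17 held a member start. The fullest, 194 kb from 21734312 to 21928743, held 14 starts from Hist1h4j to Hist1h2br, between a motif on the minus strand and one on the plus strand. The 6 intervals with 5 or more members held 44 of the 67. In the fullest interval 7 of the 14 members had under 50% of the windows around the TSS found once in the genome, and 6 had under 10%. At the starts of these members the lack of conservative summits and the lack of unique sequence cannot be told apart. For the rest of the interval no unique share is given here, and the pool I list held summits inside it, as at 21753592.

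Over clusters and edges 30 of 46 conservative summits (65.2%, exact 95% binomial interval 49.8 to 78.6%, which covers counting only) had a motif match within 50 bp, against 69.7% of 27536 summits outside these regions on chromosomes the motif was not learned from. Inside the clusters it was 13 of 21 and at the edges 17 of 25. At member promoters 4 of the 9 distinct summits matched (44.4%), against 42.4% of promoter summits elsewhere. These shares lay near those of the genome. The promoter matches were on the minus strand of the genome in 4 of 4, but their orientation relative to the gene was mixed. At Hist1h4c and Hist2h4 this is the strand of the gene, and at Hist1h4j and Hist3h2a the opposite one.

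Signal values of the pools were compared per summit as log2 of pool I over pool J. The median over all conservative peaks was 1.09 (SD over peaks 0.39), a shift of the whole list, and the histone regions were taken relative to it. Their 46 summits deviated by a median of -0.18, from -0.69 at 96278525 right of Hist2 to 0.82 at 23951129 right of Hist1 east, and none by more than 1. The ratio depends on strength in the whole list, with median deviations of 0.29, 0.20, -0.08 and -0.39 in 4 equal bins of all conservative peaks from the weakest to the strongest. In the same bins the histone summits had medians of 0.29 (n = 10), 0.18 (n = 10), -0.20 (n = 14) and -0.36 (n = 12). At member promoters the pool ratio deviated most at Hist3h2a (0.42), Hist2h4 (-0.33) and Hist2h2ac (0.32). All 46 summits had a pool I summit within 100 bp and 43 a pool J summit. Single summits lay on both sides of their bin. Right of Hist2, 96278106 (-0.58, in the second bin, SD over peaks 0.27) and 96278525 (-0.69, in the third, SD over peaks 0.20) lay below it, and these 2 are summits of 1 peak interval. Hist3h2a (0.42, in the third bin) lay above it. At this gene the pools placed their summits at different bases. The strongest of pool I was at 58954995, with a motif match, and that of pool J at 58955103, without one.

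**Figure D4:**
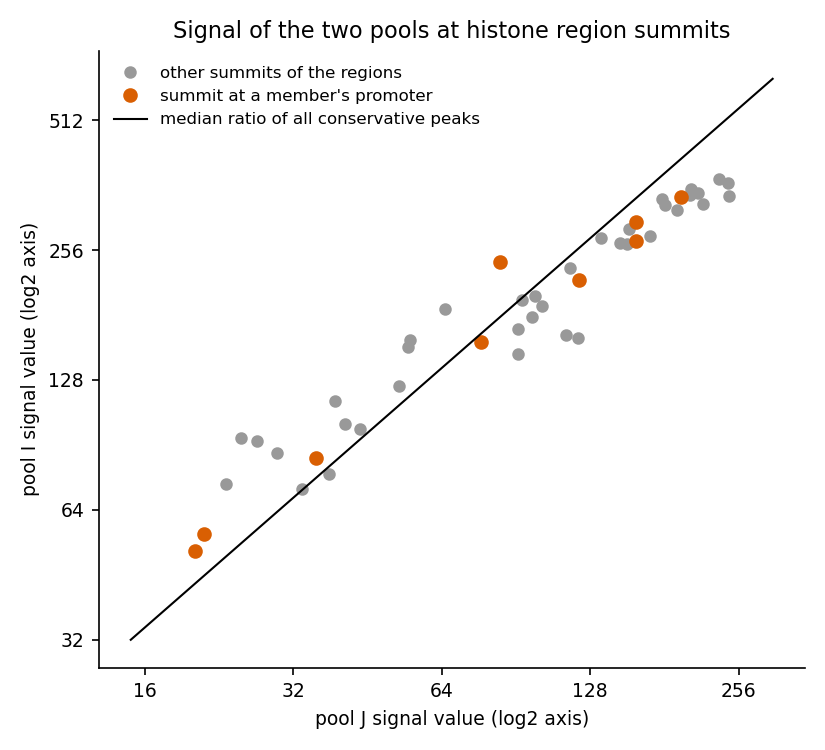
Signal value in pool I (y axis, log2) against pool J (x axis, log2) for the 46 conservative summits of the histone clusters and edges; orange points are the 9 at a member's promoter, and the line is the median ratio of all conservative peaks. Most strong summits lie below the line and most weak ones above it, and Hist3h2a is the orange point farthest above it.

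Members lay at about the same median distance from a summit as other genes, with fewer far from any. The median distance from a member's TSS to the nearest conservative summit was 8.28 kb (quartiles 2.26 and 16.9 kb), against 8.71 kb (1.62 and 27.8 kb) over 21755 genes on chromosomes with a summit. Within 25 kb lay a summit for 57 of 67 members (85.1%), against 73.0% of genes. The farthest was Hist1h4n, 96.5 kb from the nearest one, with Hist1h2ap near it at 95.2 kb. Members share their summits within a cluster, so these distances are not independent of each other.

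Histone genes are near copies of each other, and a read from a copied stretch fits several places. In the 1000 bases around the TSS a median of 71.9% of 50-base windows occurred once in the genome, against 100% for all protein-coding genes, and 13 members (19.4%) had under 50%, against 5.68% of genes. At Hist1h2bq, Hist1h2ao, Hist1h2ap and Hist1h2br the share was 0%, at Hist1h4n, Hist2h3c1 and Hist2h3c2 5.21% and at Hist1h4m 6.25%. None of these 8 had a promoter summit in any thresholded list. Genes at large with little unique sequence rarely had one either. At least 50% unique windows were found at 20691 of 21938 genes, but at 4535 of the 4556 with a conservative promoter summit. Of the 11 members with a conservative promoter summit the lowest share was 67.7%, at Hist1h3e. Among the 54 members with at least 50% unique windows, 11 had a conservative summit (all such genes 21.9%) and 26 a pool I summit (all such genes 39.5%). How the authors treated reads with several placements is not given in the sources used here, and its part in the counts was not tested.

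**Figure D5:**
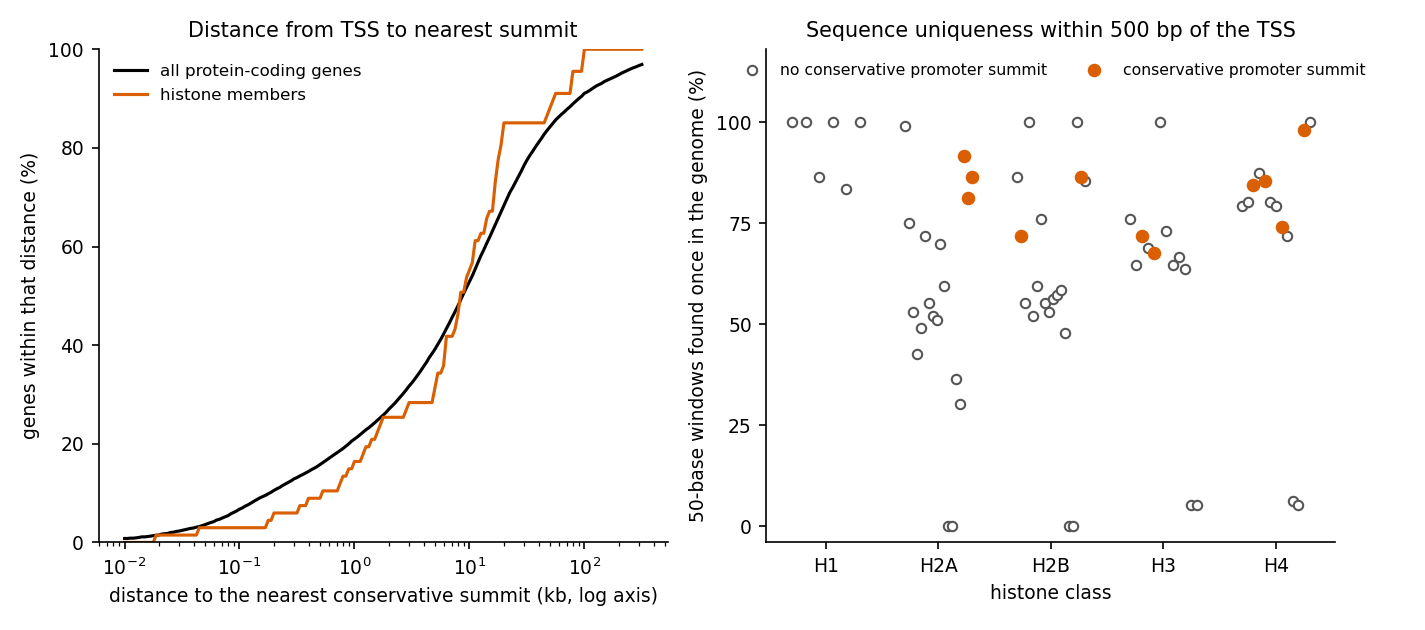
Left, percent of genes (y axis) with a conservative summit within a given distance of a TSS (x axis, kb, log scale) for all protein-coding genes and the 67 members; right, percent of 50-base windows within 500 bp of the TSS found once in the genome (y axis) for each member by class, filled where the member has a conservative promoter summit. The members' curve lies above that of all genes at 25 kb (85.1% against 73.0%), and the 11 filled points lie between 67.7% and 97.9%.

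The promoters of the members differ from others in sequence. From 250 bases before the TSS to 50 after, read on both strands, CCAAT occurred in 56 of 67 members (83.6%, all genes 39.0%), in every H2A and H2B gene and in 4 of 13 H4 genes. TATAAA occurred in 37 members (55.2%, all genes 12.6%), and the octamer core ATTTGCA, which POU factors bind, in 15 (22.4%, all genes 3.86%), namely 8 of 18 H2B and 7 of 18 H2A genes. CCAAT occurred in 9 of the 11 members with a conservative promoter summit and in 47 of the 56 without. By base composition 29 members had CpG-rich surroundings (an observed to expected CpG ratio of at least 0.6 and GC of at least 55% in 1000 bases), and 1 of these 29 had a conservative promoter summit, against 31.2% of all genes of that kind. In pool I it was 14 of 29, against 57.9%. All but 1 of the 11 members with a conservative promoter summit lay outside this kind. Among these, Hist2h2ac and Hist1h2bb (GC 54.8% each) and Hist3h2a (54.3%) fell just under the GC limit of 55%. The contrast thus hangs on that limit, and no other limit was tried. The contrast therefore covers the CpG-rich members only and does not hold for the members as a whole. The part of unique sequence in this contrast was not tested.

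Other genes of the histone pathway were read in the same way. Of 16 genes for replication-independent histone variants, 5 had a conservative promoter summit; in all genes the share was 20.8%. The strongest were at H3f3b, which codes for an H3 variant deposited outside S phase (signal value 483, 598 bp from a TSS), H2afx, the variant phosphorylated at DNA breaks (265), and H2afy2, a macroH2A (186). Cenpa, the centromeric H3, and the linker variant gene H1f0 had none. Pool I held 8 of the 16 (all genes 37.4%) and pool J 5 (all genes 25.2%).

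Of 18 genes for histone gene transcription and 3' end processing found in the annotation, 2 had one, again beside 20.8%. They were Pou2f1, which codes for the octamer-binding factor (422, 76 bp from a TSS), and Npat, the coactivator of histone gene transcription in S phase (251, 148 bp). Casp8ap2 and Cpsf2, which code for factors of the processing machinery, had none. Pool I held 10 of the 18 (all genes 37.4%) and pool J 9 (all genes 25.2%), more than the conservative list holds. Of 16 chaperone genes 4 had one (all genes 20.8%), among them Asf1b (501, 189 bp) and Asf1a (310, 90 bp), which carry H3 with H4, and Rbbp4 (215, 57 bp). Anp32e and Atrx had none. Pool I held 11 of the 16 (all genes 37.4%) and pool J 6 (all genes 25.2%). In all 3 lists the counts are small, and none was tested against other genes.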

How the data were processed

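CTCF ChIP-seq libraries of left cerebral cortex were grouped by pool, pool I and pool J, as the labels give it. The authors deposited 8 peak lists on mm10, 4 with an IDR threshold and 4 ranked before it, made after merging both libraries of a pool per the deposited notes. The deposited score is a scaled IDR (540 at an IDR of 0.05, up to 1000). The deposited ranked lists also give −log10 of the IDR. Signal values are the authors' own peak score. Which input of the ranked list of both pools is which pool was checked by identical intervals, 84.8% and 62.5% with the matching pool and 0% crosswise. The sources used here name no aligner, peak caller or read depth, so no depth limit can be stated.

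Summits were set against GRCm38.p6, the build of mm10, and GENCODE M21 with numba 0.67.0, pandas 2.3.3, numpy 2.4.6, matplotlib 3.10.9 and SciPy 1.17.1 under Python 3.11.15. The 1000 conservative peaks of highest signal on even-numbered autosomes other than 6 gave a 20-base motif, starting from the most enriched 8-base word, with the score threshold that 1% of windows 1000 bp away passed. Uniqueness is the share of 50-base windows, every 10 bases, that occur once on either strand of the genome. The steps were tested on simulated data. The members and lists were chosen with earlier results of these data known, so no test was run on them, and counts stand beside all genes. Named were every member with a conservative promoter summit, members with one in another list only (up to 10 by signal), the genes at cluster edges, summits of clusters and edges (up to 40 by signal), and of each pathway list the 3 strongest and the first 2 without. Further members and summits were named after their values were seen. Windows of 500 and 5000 bp, other lists, an IDR of 0.01, other gaps, edges and motif settings were alternatives. The symbols Mizf and Symplk did not match the annotation. The ranked list from the pooled reads was not used here, while that of both pools gave the ranked counts and the pool ratios. Some summits at a cluster edge are not reported here one by one.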

Additional observations from a re-analysis of the deposited data

How the results depend on the processing

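No paired analysis was possible because no result comes from a test and the lists hold 1 value per pool. Of 69 alternative values, 42 stayed near the value reported (within 1.5 times for counts and densities, within the binomial interval for the motif share) and 27 moved, 12 of them counts of single histone classes. The 11 members with a promoter summit became 6 within 500 bp (all genes 15.7%), 21 within 5000 bp (all genes 38.8%) and 28 in pool I alone, which leaves out pool J, while the list of pool J, which leaves out pool I, gave 9. Under the same windows and lists the variant histones went from 5 to 8 within 5000 bp and 8 in pool I, the genes of transcription and processing from 2 to 5, 10 and, in pool J, 9, and the chaperones from 4 to 7, 11 and, in the optimal list, 7. The density of 26.5 summits per Mb became 14.5 with gaps up to 3 Mb, which takes in the stretch between the Hist1 blocks and lies below the 16.9 of the genome, and 58.0 in pool I, where the genome has 31.0. The motif share of 65.2% became 10.9% at a threshold passed by 0.1% of flanking windows (15.5% elsewhere) and 44.4% in pool I. For pool I no share elsewhere is given here, so its 44.4% is not read as particular to the histone regions. For these moves the cause was not tested beyond what each setting adds or leaves out. The next 2 alternatives were chosen after seeing the data. With 36-base windows the median unique share was 64.9%, and with pool I limited to the length of pool J's list 14 members and 31.5 summits per Mb were found, where pool J's list, of the same length, has 19.9 in the genome. The lists carry no read counts, so a promoter without a summit shows only that none was called.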
